A study of Mus musculus with 5 samples.

Results

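The 6 GATA family genes, Gata1, Gata2, Gata3, Gata4, Gata5 and Gata6, were examined for peaks of RING1B, the catalytic subunit of Polycomb Repressive Complex 1 (PRC1), in mouse embryonic fibroblasts (MEFs). They were taken by gene symbol from 37252 annotated genes (autosomes and X), of which 22350 are protein-coding. Earlier results of these data were known when they were chosen, so their counts beside those of all genes are a description. A peak was assigned to a gene when it overlapped the gene body or lay within 5000 bases of the gene start, and this stretch is called the window of the gene.

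The series profiled RING1B by chromatin immunoprecipitation and sequencing in 5 samples, 1 library per group, and peak lists of 3 libraries were used here. All lines came from MEFs of a mouse embryo with floxed EED alleles, so the floxed alleles are shared by the control and by both transduced lines. The control was the parental line, the EZHIP line stably expressed human EZHIP from a lentivirus, and the K27M line stably expressed the mutant histone H3.3K27M in the same way. Expression was driven by the EF1a promoter. The control was labelled parental, so transduction and drug selection cannot be told apart from the effect of either protein. Libraries of cells with H3.3K27R and of a single-clone EED deletion line were not analysed here. The lists held 821 control, 311 EZHIP and 286 K27M peaks as positions on mm9, with no read count or score. Depth is therefore unknown, no test between groups was possible, and every difference described is one between 3 libraries and their peak calls.

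GATA factors are transcription factors that bind the DNA word GATA through zinc fingers. Gata1, Gata2 and Gata3 are best known from blood cells, and Gata4, Gata5 and Gata6 from the heart and from tissues of endodermal origin. Genes of this kind, which are silent outside their own lineages, are typical targets of the Polycomb system. PRC2 methylates histone H3 at lysine 27 and PRC1 is recruited in part through this mark, often at promoters rich in the dinucleotide CpG. EZHIP and H3.3K27M both inhibit PRC2, so the comparison asked where RING1B was still found at GATA genes in their presence.

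In the control, 4 of the 6 GATA genes had a RING1B peak, namely Gata2, Gata3, Gata4 and Gata6. The EZHIP list had peaks at 2 of them, Gata4 and Gata6, and the K27M list had peaks at 2 of them, Gata3 and Gata4. Gata4 was thus the single member with a peak in all 3 lists, and Gata1 and Gata5 had none in any list. By the same rule, 3.16% of all annotated genes had a peak in the control list, 1.12% in the EZHIP list and 1.09% in the K27M list. Among protein-coding genes the shares were 3.81%, 1.32% and 1.21%, respectively.

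The promoter sequences of 3 starts are shown as examples of a start inside a control and a K27M peak (Gata4), a start inside a control peak alone (Gata2) and a start of a gene with no peak (Gata1). They are not starts of one kind, since the first and second are inner starts and the Gata1 start is the outermost. Each run covers 250 bases before to 50 bases after an annotated start, read 5′ to 3′ on the strand of the gene in NCBIM37, the assembly of mm9, with every CpG in capitals. For Gata4 the start is that of transcript Gata4-002, which lies in the K27M peak. For Gata2 it is the inner start at 88148658, which lies in the control peak, and for Gata1 it is the outermost start.
Gata4 promoter (chr14:63864059-63864358, minus strand, 33 CpG): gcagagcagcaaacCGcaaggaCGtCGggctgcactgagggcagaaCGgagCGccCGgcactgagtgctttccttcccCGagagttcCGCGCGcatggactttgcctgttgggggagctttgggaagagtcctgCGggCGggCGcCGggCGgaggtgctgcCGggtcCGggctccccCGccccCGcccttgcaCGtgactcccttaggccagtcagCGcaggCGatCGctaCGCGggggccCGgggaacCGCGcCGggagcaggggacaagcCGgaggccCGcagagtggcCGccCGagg
Gata2 promoter (chr6:88148408-88148707, plus strand, 29 CpG): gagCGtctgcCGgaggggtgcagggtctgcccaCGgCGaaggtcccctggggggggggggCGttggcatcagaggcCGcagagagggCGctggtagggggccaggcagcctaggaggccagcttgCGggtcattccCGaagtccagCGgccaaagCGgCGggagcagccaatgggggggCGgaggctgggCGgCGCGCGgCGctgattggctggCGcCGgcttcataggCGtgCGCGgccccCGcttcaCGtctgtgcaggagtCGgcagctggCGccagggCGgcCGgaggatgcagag
Gata1 promoter (chrX:7555148-7555447, minus strand, 8 CpG): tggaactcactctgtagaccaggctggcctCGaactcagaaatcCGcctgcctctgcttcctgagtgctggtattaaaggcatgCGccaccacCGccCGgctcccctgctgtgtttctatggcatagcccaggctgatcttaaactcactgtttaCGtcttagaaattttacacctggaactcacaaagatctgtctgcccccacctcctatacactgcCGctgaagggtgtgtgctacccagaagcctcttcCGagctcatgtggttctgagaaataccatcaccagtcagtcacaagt

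These Gata4 and Gata2 promoters held 33 and 29 CpG in 300 bases, and the Gata1 promoter held 8. The outermost Gata4 start, which lay in the control peak as well, also held 8 CpG, and the Gata4 start 568 bases further inside, in the same peak, held 4. The median over the starts of all 22350 protein-coding genes was 11, with quartiles of 3 and 23. The promoter at the other Gata2 start, which lay in no peak, held 32 CpG, and that at the outermost Gata5 start, also in no peak, held 24. Starts with CpG-rich and with CpG-poor promoters were therefore both found inside and outside RING1B peaks. This holds for the start base, since the 300 bases counted reached beyond the control peak at the outermost Gata4 start and at the inner Gata2 start.

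**Figure D1:**
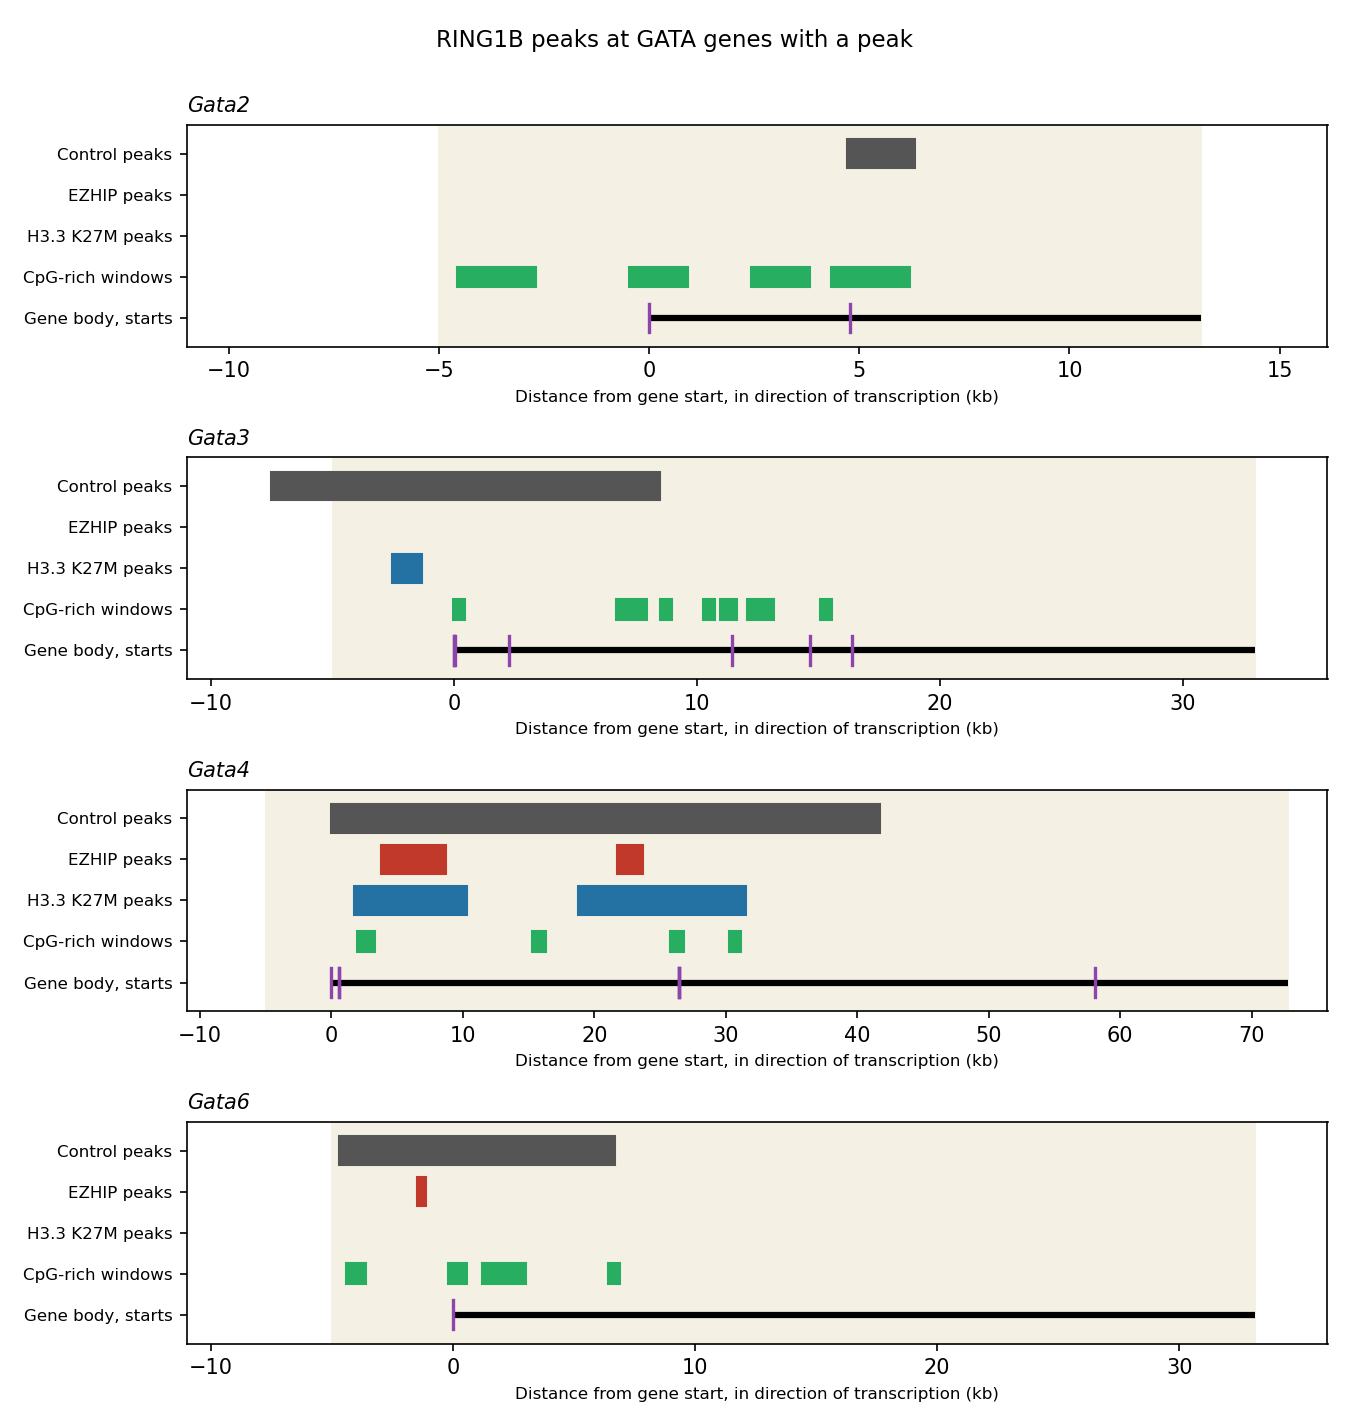
RING1B peaks at Gata2, Gata3, Gata4 and Gata6 by distance from the gene start in kb, along the direction of transcription. Bars show control (grey), EZHIP (red) and K27M (blue) peaks and CpG-island-like windows (green); purple ticks are annotated transcript starts on the gene body (black), and the shaded stretch is the window of each gene. The control peak at Gata4 spans 41799 bases and breaks into 2 peaks in each transduced line, none of which holds the outermost start.

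Gata4, a regulator of heart and endoderm development, carried the widest RING1B peak of the family. In the control a single peak of 41799 bases, at chromosome 14, 63848801 to 63890599 (mm9), was the sixth in width in its list, wider than 99.3% of the 821 control peaks. It ran from 70 bases upstream of the outermost start (63890529, minus strand) to 41.7 kb inside the gene, of which 40237 bases were intron and 1492 bases were exon. It held 5 of the 6 distinct Gata4 starts, and it touched no other annotated gene.

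In the EZHIP line, Gata4 had 2 peaks, of 4999 and 1999 bases. They began 3.73 and 21.7 kb inside the gene and lay 13.0 kb apart, both wholly in intron. In the K27M line, Gata4 had 2 peaks as well, of 8599 and 12799 bases, which were 8.40 kb apart. These began 1.73 and 18.7 kb inside the gene. Each EZHIP peak lay inside a K27M peak, and all 4 lay inside the control peak, so the transduced lines shared 6998 bases of it.

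The control peak at Gata4 was thus kept over 6998 bases (16.7%) in the EZHIP and over 21398 bases (51.2%) in the K27M list. The retained pieces differed in the starts they held. The wider K27M peak contained 3 clustered starts, among them those of transcripts Gata4-001 and Gata4-002, which lie 26.4 kb inside the outermost start, and 613 coding bases. The EZHIP peaks contained no annotated start, and the inner one ended 23.7 kb inside the gene, upstream of this cluster. No list but the control had a peak over the outermost Gata4 start, from which the nearest peak was 3730 bases away in the EZHIP and 1730 bases away in the K27M line.

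Gata6, a factor of primitive endoderm, heart and gut, had a control peak of 11399 bases at chromosome 18, 11047801 to 11059199, which was wider than 83.3% of the control list. Relative to the single annotated start (11052508, plus strand) it extended from -4.71 to +6.69 kb and contained 1267 coding bases. The start of the divergent noncoding gene 1010001N08Rik lay in the same peak, so the signal cannot be assigned to one of the pair. In the EZHIP list a peak of 399 bases remained, which is 2 bins of 200 bases and 3.50% of the control peak. It lay at -1507 to -1109 bases from the Gata6 start, within the body of 1010001N08Rik. This was the smallest width in the EZHIP list, shared by 58 of its 311 peaks, whereas no control peak was narrower than 1199 bases. With the gene body or 1000 bases around the start as the window, or with a minimum width of 1000 bases, Gata6 had no EZHIP peak. The K27M list had no peak at Gata6, and its nearest peak was 4257 kb away, at Kctd1.

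Gata3, which directs T helper cell and mammary epithelial fates, had a control peak of 15999 bases at chromosome 2, 9803201 to 9819199, wider than 88.9% of the control list. Relative to the outermost start (9811661, minus strand) the peak reached from -7.54 to +8.46 kb and held 3 of 6 distinct starts and no coding base. The start of the protein-coding transcript Gata3-001, 11.4 kb inside the gene, lay beyond the edge of the peak. Part of it also belonged to other annotated genes, since it held the start of 9230102O04Rik and overlapped 4930412O13Rik on the opposite strand.

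The K27M list kept 1 peak of 1199 bases at Gata3, or 7.49% of the control peak, and the EZHIP list kept none. This residual peak lay at -2.54 to -1.34 kb from the outermost start and overlapped no annotated gene. With the gene body or 1000 bases around the start as the window, Gata3 had no K27M peak. The nearest EZHIP peak was 16747 kb from the Gata3 start.

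Gata2, which maintains blood stem and progenitor cells, had the narrowest control peak of the family, 1599 bases at chromosome 6, 88148601 to 88150199. It was wider than 12.4% of the control list. The peak lay 4.72 to 6.31 kb inside the outermost start (88143885, plus strand), over the inner start and 229 coding bases. The outermost start itself was in no peak. Gata2 had no control peak when the lists were limited to equal numbers of their widest peaks, when peaks had to span at least 5000 bases, or when the outermost start had to lie inside the peak. In the EZHIP and K27M lists, the nearest peaks were 3004 and 3002 kb away, both at Emx1.

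Gata1, the erythroid and megakaryocyte factor on the X chromosome (7536386 to 7555197), had no peak. The nearest control peak was 915 kb from its start, with 23 other protein-coding gene starts between them. Gata5, a factor of endocardium and gut on chromosome 2 (180059838 to 180069404), had no peak either, and the nearest control peak was 440 kb away, overlapping Bhlhe23 and the start of Gm14343. Absence from a list means that no peak was called there, and RING1B below the calling threshold cannot be seen in such lists.

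**Figure D2:**
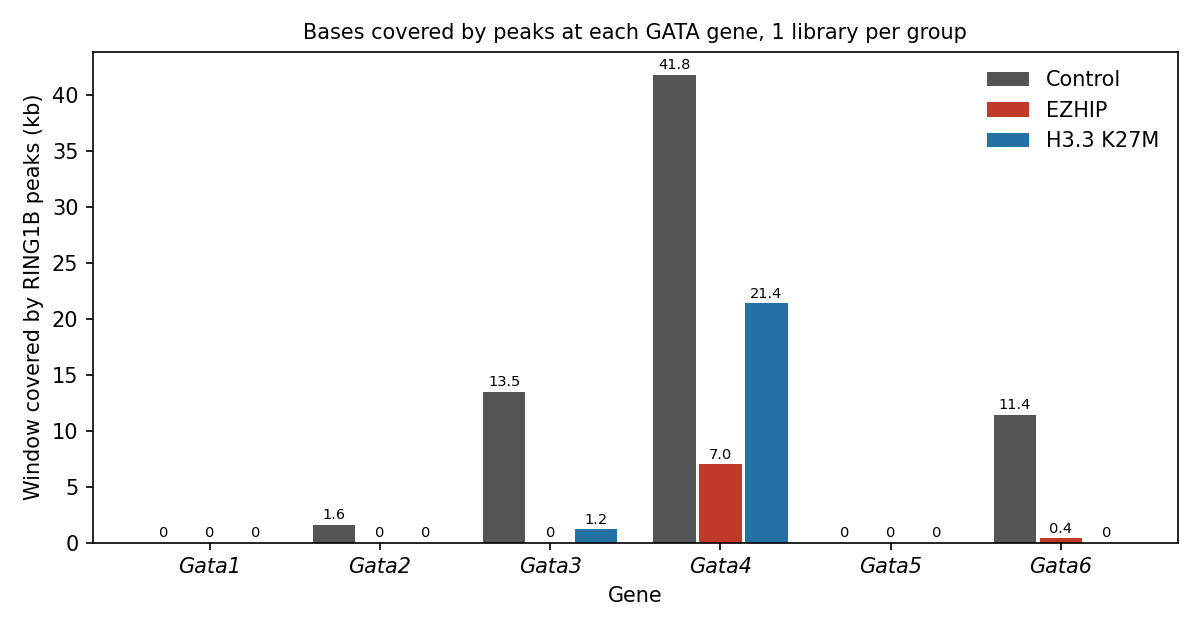
Kilobases of the window of each GATA gene that lay in a RING1B peak, in the control (grey), EZHIP (red) and K27M (blue) list. Each bar is 1 library and has no error bar. Gata4 is covered most in every list, at 41.8, 7.0 and 21.4 kb.

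Within the windows, control peaks covered 41799 bases at Gata4, 13461 at Gata3, 11399 at Gata6 and 1599 at Gata2. With a single library there is no spread against which the order of Gata3 and Gata6 could be judged. Both transduced lines covered fewer bases than the control at all 4 genes. The ratio of EZHIP to control was 0.167 at Gata4 and 0.0350 at Gata6, and 0 at Gata2 and Gata3. The ratio of K27M to control was 0.512 at Gata4 and 0.0891 at Gata3, and 0 at Gata2 and Gata6. In windows around all transcript starts in place of the gene body, the K27M ratio at Gata4 was 0.885.

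These ratios were set beside those of the other protein-coding genes with a control peak. Of all 851 such genes, 29.3% also had an EZHIP peak and 28.6% also had a K27M peak, where the GATA family had 2 of 4 in each list. Among the 247 other genes with an EZHIP peak as well, the median ratio was 0.432, with quartiles of 0.203 and 0.814. Both GATA genes in that list fell below the lower quartile. Among the 241 other genes with a K27M peak as well, the median was 0.711, with quartiles of 0.412 and 0.951. Gata4 lay between the quartiles and Gata3 below them. With so few genes, these positions are a description.

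Width in the control and retention were also compared at the level of peaks. Of the 156 other control peaks of at least 10000 bases, 73.7% had an EZHIP peak and 83.3% had a K27M peak. The GATA family had 3 control peaks in this class, at Gata3, Gata4 and Gata6, of which 2 had an EZHIP and 2 a K27M peak. Where such wide peaks were kept at all, the other ones kept a median of 42.1% of their bases in the EZHIP list (quartiles 14.9% and 68.2%) and 68.8% in the K27M list (quartiles 52.1% and 80.9%). By this measure the 16.7% of Gata4 in the EZHIP list lay above the lower quartile and its 51.2% in the K27M list just below it, the reverse of its place among genes. The 3.50% of Gata6 and the 7.49% of Gata3 lay below the lower quartiles by both measures. Of the 237 other control peaks under 2000 bases, the class of Gata2, 6.75% had an EZHIP and 0.422% a K27M peak. The absence of Gata2 from both lists was therefore the usual outcome for a peak of its width.

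The 4 genes with a control peak each showed another combination of lists. Of 898 protein-coding genes with a peak in any list, 530 had it in the control alone, as Gata2 did. Peaks in all 3 lists were found at 171 genes, as at Gata4, control and EZHIP peaks at 78, as at Gata6, and control and K27M peaks at 72, as at Gata3. The remaining 20 genes with EZHIP peaks alone, 25 with EZHIP and K27M peaks and 2 with K27M peaks alone included no GATA gene.

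CpG-island-like windows were located to see which sequence the retained peaks covered. They were joined from overlapping scanning windows of 500 bases, each with at least 55% G and C and a ratio of observed to expected CpG of at least 0.65, so that a joined stretch can fall slightly under these limits. The windows of the 6 genes held 21 of them, with 4 at Gata2, 7 at Gata3, 5 at Gata4, 1 at Gata5, 4 at Gata6 and none at Gata1. Control peaks touched 12 of the 21, including all 5 at Gata4 and all 4 at Gata6. K27M peaks touched 4, all at Gata4, and EZHIP peaks touched 0. With a looser definition (200 bases, 50% and 0.6), 49 stretches were found, and control peaks touched 31, K27M peaks 13 and EZHIP peaks 2.

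The EZHIP peaks at Gata4 and Gata6 and the K27M peak at Gata3 thus covered none of these CpG-island-like windows. In the whole lists, 61.1% of EZHIP, 75.5% of K27M and 91.2% of control peaks touched one. A wider peak has more room to touch one, and the median widths were 1999, 5199 and 3399 bases, respectively. These shares are therefore not matched in width to the narrow peaks at Gata6 and Gata3. Of 20 distinct starts of the 6 genes, 10 lay in a control peak, 3 in a K27M peak and 0 in an EZHIP peak. The 3 starts in the K27M peak are the cluster at Gata4 and stand for 1 locus. Of 70018 distinct starts of all protein-coding genes, 2.17% lay in a control, 0.54% in a K27M and 0.4% in an EZHIP peak.

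A bin with the highest CpG count of its peak is shown for the K27M peak at Gata3 and for both EZHIP peaks at Gata4, none of which held an annotated start, to compare it with the promoters above. At Gata3 and in the outer Gata4 peak, other bins held equally many CpG. Bins are the 200-base units from which the peaks were built. They are given on the plus strand of NCBIM37, with every CpG in capitals.
Gata3 K27M peak (chr2:9813001-9813200, plus strand, 5 CpG): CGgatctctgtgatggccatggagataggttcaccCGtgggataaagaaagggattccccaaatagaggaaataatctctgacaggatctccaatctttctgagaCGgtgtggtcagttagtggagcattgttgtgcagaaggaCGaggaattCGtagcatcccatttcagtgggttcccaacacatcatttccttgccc
Gata4 EZHIP peak (chr14:63867001-63867200, plus strand, 9 CpG): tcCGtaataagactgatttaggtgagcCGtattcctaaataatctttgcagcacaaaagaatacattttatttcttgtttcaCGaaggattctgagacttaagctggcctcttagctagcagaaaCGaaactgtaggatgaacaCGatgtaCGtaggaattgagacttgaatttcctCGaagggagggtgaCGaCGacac
Gata4 EZHIP peak (chr14:63886001-63886200, plus strand, 7 CpG): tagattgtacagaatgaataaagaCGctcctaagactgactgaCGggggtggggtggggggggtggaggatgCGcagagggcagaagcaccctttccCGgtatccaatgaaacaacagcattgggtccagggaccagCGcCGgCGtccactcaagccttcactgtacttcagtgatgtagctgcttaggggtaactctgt

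These bins held 5, 9 and 7 CpG, against 33 CpG in the 300 bases at the internal Gata4 start. The EZHIP peaks at Gata4 held 20.01 and 16.0 CpG per kb and the EZHIP peak at Gata6 held 22.6, where the EZHIP list had a median of 24.8 and quartiles of 12.5 and 40.7. The control peaks held 20.9 CpG per kb at Gata4, 24.3 at Gata3, 39.2 at Gata6 and 64.4 at Gata2. The control list had a median of 41.9 and quartiles of 29.2 and 63.6, so those at Gata4 and Gata3 lay below its lower quartile. The K27M peak at Gata3 held 15.8 CpG per kb, against a median of 32.7 and quartiles of 20.3 and 44.7 in its list. The K27M peaks at Gata4 held 30.4 and 20.7, between these quartiles.

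**Figure D3:**
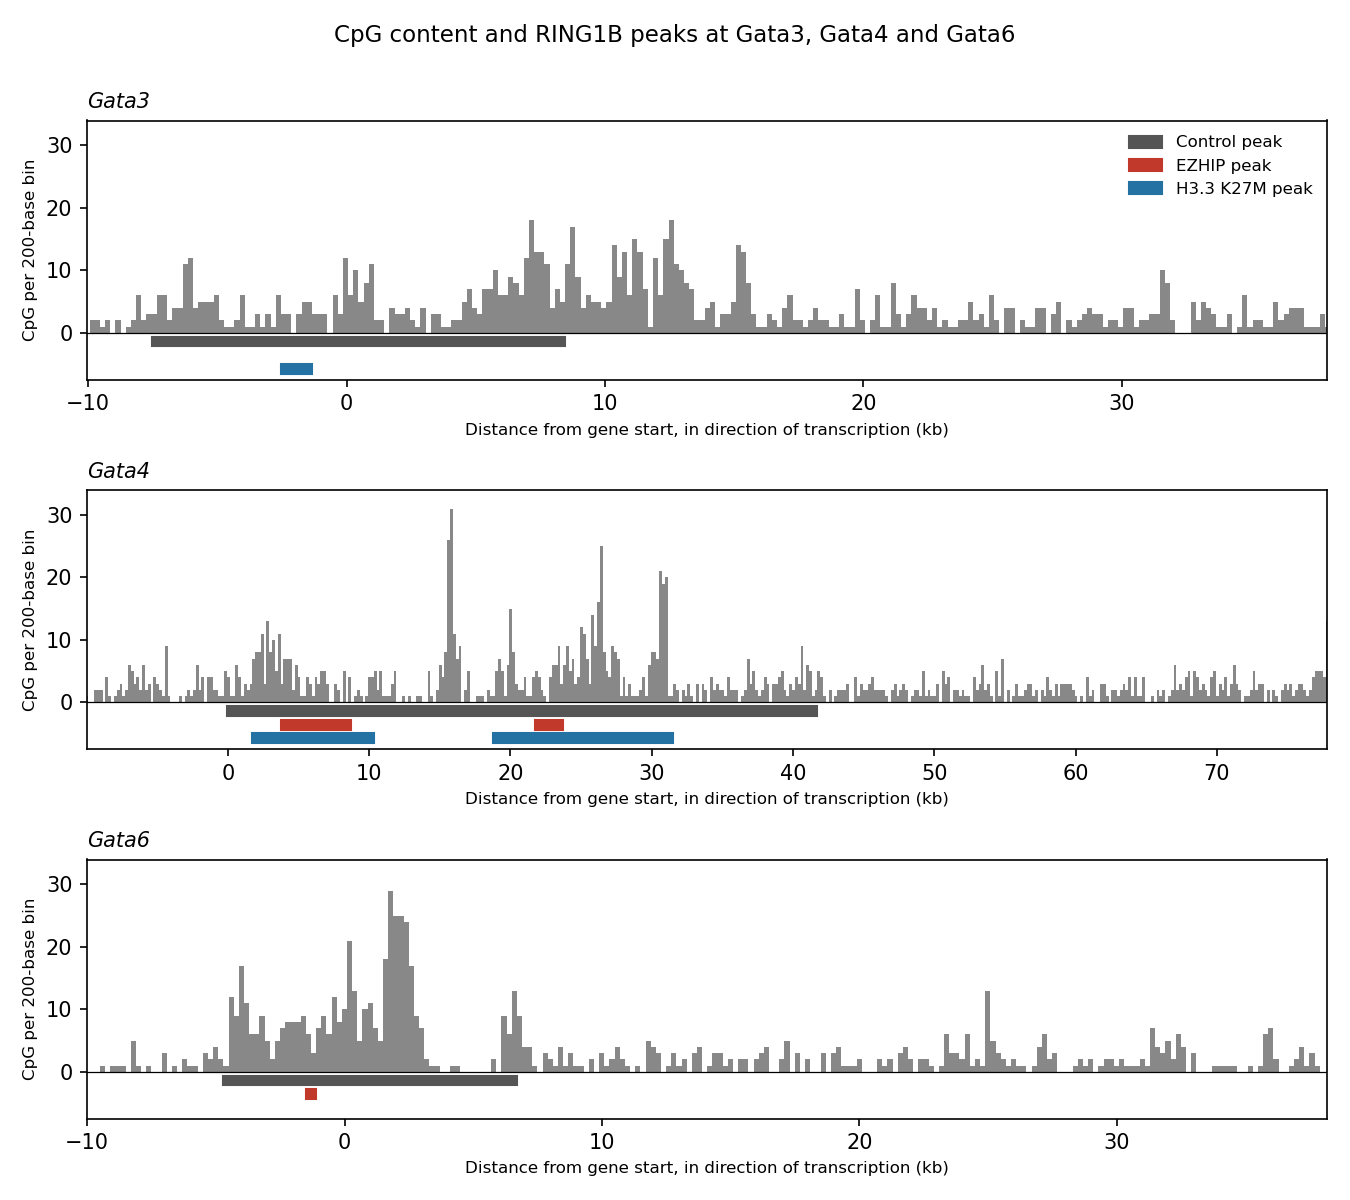
Number of CpG in each 200-base bin (grey bars) by distance from the gene start in kb at Gata3, Gata4 and Gata6, with control (dark grey), EZHIP (red) and K27M (blue) peaks drawn below. At Gata4 the richest bin, with 31 CpG, lies 15.8 kb inside the gene in the control peak and between the peaks of both transduced lines.

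Inside the control peaks, bins that were kept were compared with bins that were lost. At Gata4 the 35 bins kept in the EZHIP list held a mean of 3.43 CpG and the 174 lost bins 4.30. In the K27M list the order was the opposite, with 5.27 CpG in 107 kept bins and 2.98 in 102 lost bins. At Gata6 the 2 bins kept in the EZHIP list held a mean of 4.50 CpG and the lost bins 7.95. At Gata3 the 6 bins kept in the K27M list held 3.17 and the lost bins 4.99.

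The same comparison over other control peaks that were kept in part gave a higher CpG mean in the kept bins in 122 of 215 peaks (56.7%) for EZHIP and in 168 of 218 (77.1%) for K27M. The retained EZHIP pieces at Gata4 and Gata6 and the retained K27M piece at Gata3 therefore belonged to the smaller group of peaks. The most CpG-dense bin of each control peak lay outside all retained peaks, with 31 CpG at Gata4, 29 at Gata6, 18 at Gata3 and 29 at Gata2. The K27M peak at Gata4 did hold bins of 25, 21 and 20 CpG. How mappability or fragment size in such sequence bore on the peak calls was not tested.

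The 300-base promoters were also searched for TGATAA and AGATAA on both strands, forms of the word bound by GATA factors. No site can match both words. Among the 20 distinct starts, AGATAA occurred 2 times at the outermost Gata4 start and 1 time at the innermost Gata1 start, and TGATAA occurred 1 time at the start of Gata3-003. The other starts held neither. Of all protein-coding promoters, 8.25% held TGATAA, 10.3% held AGATAA and 17.0% held at least one.

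Genes that act with GATA factors were examined by the same rule. Of 34 cofactors, relatives and partners, 12 had a control peak, 7 an EZHIP peak and 9 a K27M peak. The shares over all protein-coding genes were 3.81%, 1.32% and 1.21%, respectively. The Friend-of-GATA cofactors Zfpm1 and Zfpm2, which bind the zinc finger of GATA proteins, had none. The other genes with GATA-type zinc fingers, Trps1, Gatad1, Gatad2a, Gatad2b and Zglp1, had none either. The peaks were therefore at the lineage partners.

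Of 11 blood partners, 3 had a control peak. Tal1, which works with Gata1 and Gata2 in blood formation, had 12799 bases in the control, 3799 in the EZHIP and 7999 in the K27M list. Lmo2, the bridging protein of that complex, had 2999 bases in the control and 1599 in each of the other lists. Fli1 had 2799 bases in the control and no peak in the others. The other genes of the list, including Ldb1 and Lyl1 of the same complex, had no peak in any list.

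Of 8 heart partners, 5 had a control peak. Nkx2-5, a cardiac homeobox factor that binds together with GATA4, had 21999 bases in the control, 11199 in the EZHIP and 15599 in the K27M list. Isl1 had 22399, 15999 and 18599 bases, and Tbx20 had 15999, 9599 and 11799 bases, in the same order. Hand1, with 6798 bases in 2 control peaks, and Hand2, with 9999 bases, had no peak in either transduced line.

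Of 8 endoderm partners, 4 had a control peak. The forkhead gene Foxa1 had 21199 bases in the control, 10799 in the EZHIP and 15199 in the K27M list. Foxa2, with 27399 control bases, and Cdx2, with 24199, had no EZHIP peak and kept 17999 and 16199 bases in the K27M list. At every partner gene named here with peaks in all 3 lists except Lmo2, where they were equal, the K27M peaks were wider than the EZHIP peaks, as at Gata4. The whole lists had the same order, with a median peak width of 5199 bases for K27M and 1999 bases for EZHIP. Wider K27M peaks are therefore not particular to these genes. Gata6 was the single gene among the 6 members and 34 related genes with a control and an EZHIP peak and no K27M peak.

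**Figure D4:**
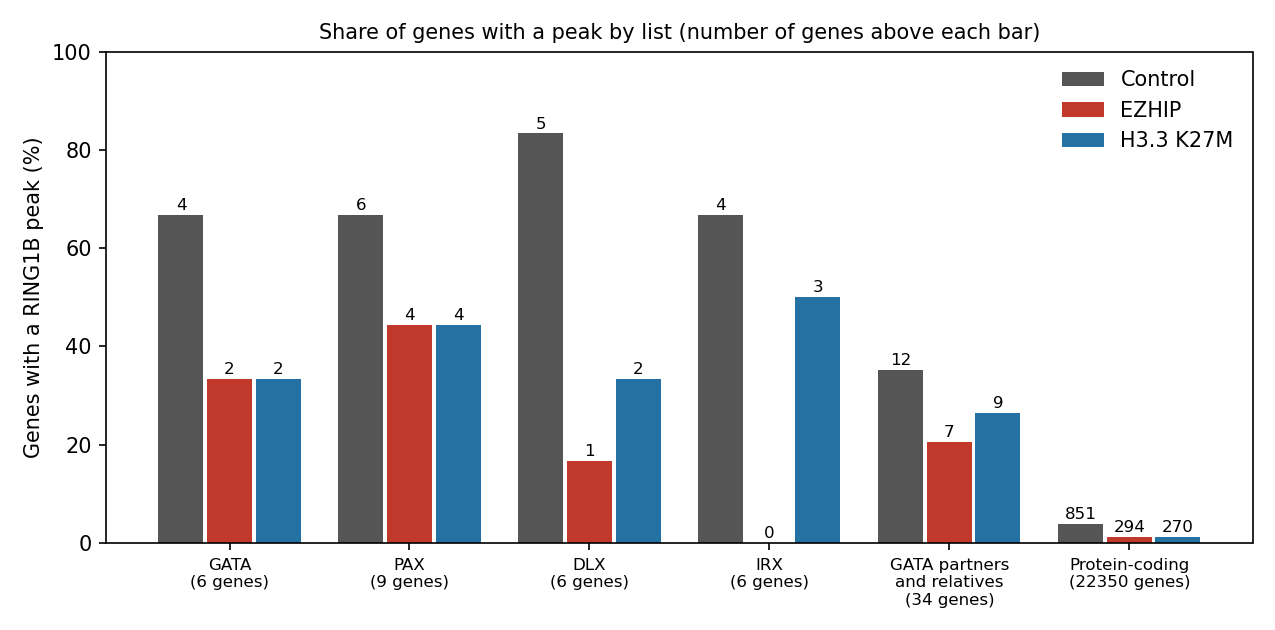
Share of genes with a RING1B peak in the control (grey), EZHIP (red) and K27M (blue) list, in percent, for the GATA, PAX, DLX and IRX families, the 34 GATA partners and relatives, and all 22350 protein-coding genes. Numbers above the bars are genes. The GATA family has 4, 2 and 2 genes with a peak.

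Other families of developmental factors gave similar numbers in the control. Peaks were found at 6 of 9 PAX, 5 of 6 DLX and 4 of 6 IRX genes, beside 4 of 6 GATA genes. In the EZHIP list the counts were 4, 1 and 0, beside 2 GATA genes, and in the K27M list they were 4, 2 and 3, beside 2 GATA genes. The DLX and IRX genes lie in clusters, whereas each GATA gene is a separate locus. These differences were not tested, since genes of a family are not replicates.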

How the data were processed

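Per the labels and the study's methods, the authors crosslinked MEFs, digested chromatin with micrococcal nuclease, aligned RING1B reads to mm9 and a spike-in genome with Bowtie (version 1.0.0 in the submitters' notes) and called broad peaks with MOSAiCS-HMM, with a stated minimum size of 1000 bases and maximum gap of 10000. The deposited lists hold chromosome, start and end per peak, 1 list per library, with no signal or score. Deposited starts were multiples of 200 bases and ends 1 below one, and peaks under the stated minimum occur in the transduced lines. Width is the deposited end minus the deposited start. Printed positions are 1-based, so that printed starts are 1 above the deposited ones. If the deposited ends are inclusive, each peak is 1 base wider than given.

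Genes came from GENCODE vM1 on NCBIM37, the assembly of mm9. All peaks ended within its chromosomes. All 6 members and 34 related genes were found, Spi1 under the older symbol Sfpi1. The outermost 5′ end was the gene start. Sequences were read from NCBIM37. Overlaps were computed in Python 3.11.15 with numpy 2.4.6, scipy 1.17.1 and matplotlib 3.10.9, after the overlap code was tested on simulated data. Groups followed the labelled cell type, with 1 library each, so no test was run. Members, lists and rules were chosen with earlier results of these data known. Named genes were all members, genes under or nearest to their peaks, and related genes with a peak, except 1 that is not reported here. Related and fibroblast genes without a peak are named outside that rule, after their values were seen. Alternatives changed the window, minimum width, peak number, gap, start, end and gene set. The lists' peak number depends on an unknown depth.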

Additional observations from a re-analysis of the deposited data

How the results depend on the processing

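No paired analysis was possible because each group is 1 library. In all, 74 values were recomputed under 13 settings, of which the 2 island definitions were chosen after seeing the data, giving 546 recomputed values. A count or length was taken as changed when it moved by more than 1.5 times, and a share when it left its 95% Wilson interval. Of the counts and shares over genes or CpG-island-like windows, 55 stayed and 35 moved. Of the values for single genes, 408 stayed and 48 moved, 18 upward and 30 downward. Merging peaks within 10000 bases moved no count or share outside these limits, but it joined the K27M peaks at Gata4, for a ratio of 0.713. With windows around any transcript start in place of the gene body, that ratio was 0.885.

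With the gene start inside the peak, 0 GATA genes had an EZHIP and 0 a K27M peak, 4 related genes had an EZHIP peak, and 2.27%, 0.518% and 0.65% of all genes had a control, EZHIP and K27M peak. With the gene body or 1000 bases around the start, 1 GATA gene had an EZHIP and 1 a K27M peak, Gata4 in each, and the shares of all genes were 2.96%, 0.977% and 0.950%. With 10000 bases around it the shares were 3.46% for the control and 1.25% for EZHIP. With 50000 bases they were 6.58%, 2.34% and 2.17%, and 11 related genes had an EZHIP peak. With peaks of at least 1000 bases, Gata6 lost its EZHIP peak, which left 1 GATA gene, and the shares were 0.811% for EZHIP and 0.923% for K27M. With peaks of at least 5000 bases, 0 GATA genes had an EZHIP and 1 a K27M peak, 4 related genes had an EZHIP peak, and the shares were 1.46%, 0.510% and 0.682%. With equal numbers of the widest peaks, the control share was 1.43%. In this setting, with peaks of at least 5000 bases and with the gene start inside the peak, Gata2 lost its control peak and 3 GATA genes had one. Among protein-coding genes the shares were 3.81%, 1.32% and 1.21%. CpG-island-like windows that touched a peak numbered 31 for the control, 2 for EZHIP and 13 for K27M under the looser definition, and 7 for the control and 2 for K27M under a stricter one (60% and 0.75). These settings remove or add peaks, genes or stretches by construction.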

Other observations

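Fibroblast genes were looked up by the same rule for their peak state alone, since the peak lists hold no expression. Of 10 such genes, Pdgfra, a receptor of mesenchymal cells, had a peak. The peak spanned 5399 bases in the control and 599 in EZHIP cells, and K27M cells had none. Col1a1, Col1a2, Col3a1, Thy1, Vim, Prrx1, Twist1, Twist2 and S100a4 had no peak in any list. Of all protein-coding genes, 3.81% had a control, 1.32% an EZHIP and 1.21% a K27M peak. Lack of a peak is thus the usual state of a gene and does not check the cell type.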
